A study of Mus musculus with 8 samples.

Results

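Translation initiation factor genes were examined in macrophages sorted from mouse hearts, comparing animals transplanted with bone marrow labelled LOY (loss of the Y chromosome) with animals transplanted with control marrow. The members were all genes whose symbol starts with Eif and a digit from 1 to 6, together with Denr and Mcts1, provided that their mean over the 8 libraries reached 1 TPM (transcripts scaled to a fixed total per library, a level per transcript length). Eif2s3x and its Y-linked copy Eif2s3y, the eIF2 kinases (Eif2ak genes) and pseudogenes with numbered -ps names were left out by name. This gave 51 members among 36708 genes in the table and among the 11725 genes tested, and all 51 were tested. The set was proposed as autosomal, but 2 of the members, Eif1ax and Mcts1, lie on the X chromosome and 49 lie on autosomes. The lowest members just inside the level threshold were Eif4e1b with a mean of 1.54 TPM and Eif5a2 with 2.29 TPM, and the only eligible name below it was Eif5al3-ps with 0.0771 TPM.

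The LOY group had 4 libraries, from heart macrophages of mice with a bone marrow transplant (BMT) of genotype LOY and treatment Control. The control group had 4 libraries, from mice with a BMT of genotype Control and treatment Control. What the groups share is the transplant, the treatment label and a red fluorescent protein (RFP) mark used in the sort. Left ventricles were digested and 6000 CD45.2+Ly6G-CD64+RFP+ cells were collected per library, a gate that takes macrophages by CD64 and leaves out neutrophils by Ly6G. The labels used here name no allele behind the loss of Y, no age and no time after transplant. Whether each library stands for its own animal is not said, so a p-value measures only the spread between these libraries. Within a group, values are listed below in the order of replicates 1 to 4.

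The Y-linked Eif2s3y checks the labels. It was at 0.891, 23.0, 0.446 and 0.271 TPM in the LOY libraries, against 55.4, 61.4, 50.9 and 63.7 TPM in the control libraries. The library labelled LOY replicate 2 thus kept a Y-linked transcript that was near 0 in the other 3 LOY libraries. Control replicate 1 also stood apart: among genes with higher LOY values at an unadjusted p under 0.05, it was the highest control library in 79.4%, against 45.2% of all genes tested. Control replicate 3 was the lowest control library in 76.3% of those same genes, against 49.2% of all genes tested. In a limma fit with library weights the lowest weights went to LOY replicate 1 (0.371), control replicate 1 (0.455) and control replicate 3 (0.589). All 8 macrophage markers were above 1 TPM, and they summed to 30545 to 43681 TPM in LOY libraries and 33579 to 39833 TPM in control libraries. The summed neutrophil markers were 82.9 to 99.4 TPM in LOY libraries and 42.7 to 84.4 TPM in control libraries, of which Csf3r made up most with a mean of 74.1 TPM, while Ly6g averaged 0.0613 TPM. Cardiomyocyte markers summed to 54.3 to 145 TPM in LOY libraries and 51.6 to 91.6 TPM in control libraries. Red cell markers summed to 170.3 to 902 TPM in LOY libraries and 208 to 638 TPM in control libraries. The T cell, B cell, NK cell, dendritic cell, fibroblast and endothelial lists summed to at most 26.3 TPM in any library. No marker found in the table was at 0 in all libraries, and the part of these other cells in the results below was not tested. In such bulk libraries, fewer cells of a type and less RNA per cell cannot be told apart.

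Initiation is the step at which a ribosome finds the start codon of an mRNA. eIF2 brings the initiator tRNA to the small ribosomal subunit, eIF3 is a scaffold on that subunit, eIF4F binds the mRNA cap and unwinds the leader, and eIF1, eIF1A, eIF5 and eIF5B govern start codon choice and the joining of the large subunit. Phosphorylation of eIF2 by stress kinases and of the 4E-binding proteins by mTORC1 are the main controls of this step, and activated macrophages use both to set their protein output. The gamma subunit of eIF2 has an X-linked and a Y-linked gene in mice, so loss of Y removes a gene of this machinery directly.

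Initiation factor transcripts summed to similar levels in both groups, and no member passed the test over all genes. The smallest adjusted p of a member was 0.179 (limma on log2(TPM + 1), Benjamini-Hochberg over 11725 genes), and the smallest of any gene was 0.148, so that 0.0% of all genes were called. The 51 members together made up 5524, 5504, 5417 and 5518 TPM in LOY libraries, against 5637, 5728, 5662 and 5506 TPM in control libraries. Their median log2 fold change, LOY minus control, was -0.04, while that of all genes tested was 0.16. Of the members, 22 (43.1%) were above 0 and 29 below, against 68.2% of all genes above 0.

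At an unadjusted p under 0.05, 6 members (11.8%) had higher values in LOY libraries, against 19.3% of all genes, and 2 members (3.92%) had lower values, against 3.45% of all genes. The 6 were Eif3a, Eif4a2, Eif4enif1, Eif4g1, Eif4g2 and Eif4g3, and the 2 were Denr and Eif5a. LOY and control libraries did not overlap, with LOY higher, for 1 member (1.96%, Eif4a2), against 6.76% of all genes. With LOY lower they did not overlap for 3 members (5.88%, Denr, Eif5a and Eif2s2), against 2.61% of all genes. Log2 fold changes ran from -0.61 (Denr) to 0.71 (Eif4g3), and 43 of the 51 were within 0.3 of 0. For 48 members the 95% interval lay within -1 and 1, with a median half-width of 0.33. Without the library labelled LOY replicate 2, unadjusted p under 0.05 was found for 3 members with higher and 2 with lower LOY values, where 11.4% of all genes had higher and 2.68% lower ones. With library weights 8 members passed the adjusted threshold, where 23.5% of all genes were called higher and 3.0% lower. Without control replicate 1, 5 members passed the adjusted threshold, where 14.9% of all genes were called higher and 0.537% lower. The 5 without control replicate 1 were Eif4g1, Eif4g2, Eif4g3 and Eif4enif1 with higher LOY values and Denr with lower ones.

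**Figure D1:**
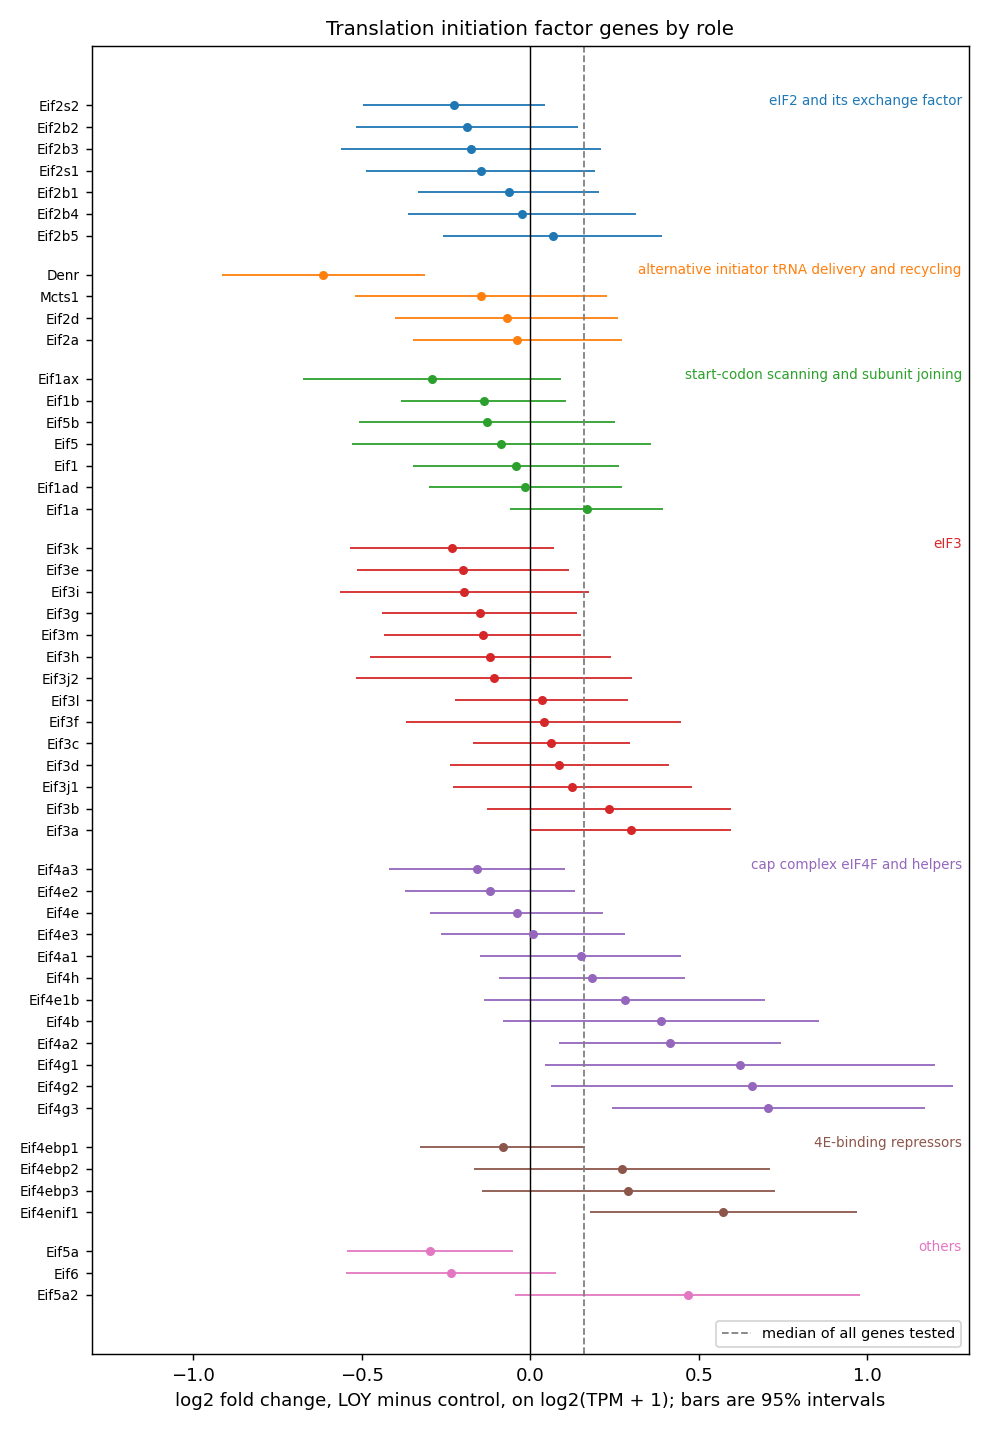
Log2 fold change of each of the 51 initiation factor genes, LOY minus control, on the log2(TPM + 1) scale, grouped by role (colours), with bars for the 95% interval of the limma fit. The dashed line is the median of all genes tested (0.16); the points run from -0.61 for Denr to 0.71 for Eif4g3, and the cap complex lies mostly to the right while the eIF2 genes lie mostly to the left.

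Which DNA elements the members carry near their start sites was described with the E box, CACGTG, the sequence bound by the growth regulator MYC and its relatives and known from the Eif4e promoter. The letters read the same on both strands. RefSeq promoter windows on GRCm38.p6 were found for 39 members and not used for 12. Within 250 bases upstream of a start, 9 of the 39 (23.1%) held the letters, against 890 of the 8859 genes tested with a window and 6.86% of all 27025 genes with a window. They were Eif1b, Eif3f, Eif3k, Eif4a1, Eif4e, Eif4g1, Eif4h, Eif5a and Eif5a2. Shown are the cap complex core, where Eif4e holds a pair of copies and Eif4g1 and Eif4a1 each hold 1, and Eif5a, whose groups did not overlap and whose windows at different starts hold a pair of copies. Each stretch is 30 bases, written 5′ to 3′ on the strand of the gene, with the E box in capitals.
Eif4e, chr3:138527028-138527057, plus strand: ctcgccagcgacCACGTGatcacttttttt
Eif4e, chr3:138527192-138527221, plus strand: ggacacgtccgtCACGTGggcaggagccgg
Eif4g1, chr16:20672661-20672690, plus strand: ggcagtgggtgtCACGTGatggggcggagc
Eif4a1, chr11:69672595-69672624, minus strand: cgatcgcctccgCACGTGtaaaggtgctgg
Eif5a, chr11:69920791-69920820, minus strand: gcgctgcgcggcCACGTGaggtgggggagg
Eif5a, chr11:69921443-69921472, minus strand: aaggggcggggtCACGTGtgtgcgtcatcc
The log2 fold changes of the 9 genes with the letters ran from -0.30 (Eif5a) to 0.62 (Eif4g1), with 5 above 0, 4 below and a median of 0.04. The 30 members with a window but without them had a median of -0.04. A match of letters is a description of the sequence and not of a bound site.

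Among the 7 genes of eIF2 and its exchange factor eIF2B, none reached an unadjusted p under 0.05, 6 were below 0 and 1 above, and the median log2 fold change was -0.15. Under median-of-ratios scaling all 7 were below 0 with a median of -0.33, and 1 gene had an unadjusted p under 0.05 with lower LOY values, as 2 did under quantile normalization and 2 after removal of the length and GC trend. At that threshold 1293 of all 11725 genes were lower under median-of-ratios scaling. The share of all genes lower was 9.7% under quantile normalization and 7.82% after trend removal, against 3.45% without these steps. Eif2s1 (chr12:78861819-78887010 on GRCm38, plus strand) encodes the alpha subunit, the target of the stress kinases. It was at 111, 149.8, 149.7 and 107 TPM in LOY libraries, against 130.4, 134, 133 and 172 TPM in control libraries, so the groups overlapped (log2 fold change -0.15, 95% interval -0.49 to 0.19). Eif2s2 (chr2:154871410-154892935, minus strand), the beta subunit, was at 30.9, 30.6, 28.1 and 25.3 TPM in LOY libraries, against 31.5, 31.8, 38.1 and 33.6 TPM in control libraries. All 4 LOY values lay below all 4 control values, by 0.67 TPM at the closest pair, but the log2 fold change of -0.23 (SE 0.12) did not pass the threshold (limma adjusted p = 0.276). Eif2b5 encodes the catalytic subunit of eIF2B and averaged 29.2 ± 5.03 TPM in LOY libraries and 27.6 ± 2.95 TPM in control libraries (SD, n = 4 each). Its log2 fold change of 0.07 turned to -0.11 under median-of-ratios scaling. The other 4 exchange factor genes had log2 fold changes between -0.19 and -0.03.

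The gamma subunit completes this trimer, and there the groups differed in which gene was read. Eif2s3x was at 13.7, 22.6, 19.2 and 20.1 TPM in LOY libraries, against 15.8, 14.8, 9.31 and 15.1 TPM in control libraries. Its log2 fold change was 0.44 (SE 0.21, limma adjusted p = 0.232). For Eif2s3y it was -4.28 (SE 0.79, limma adjusted p = 0.179), and -5.27 without the library labelled LOY replicate 2. That library was set apart by its value of this same gene, so no test is drawn from leaving it out. The X and Y copies together gave 14.5, 45.6, 19.7 and 20.4 TPM in LOY libraries, against 71.2, 76.2, 60.2 and 78.8 TPM in control libraries. The summed gamma level was lower in every LOY library than in any control library. Loss of the Y-linked copy defines the LOY group, so this lower sum is given by the design and is no separate result. The alpha subunit gene overlapped between the groups. The beta subunit gene was also lower in every LOY library, by 0.67 TPM at the closest pair, and differed by less than 1.5 times in mean.

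**Figure D2:**
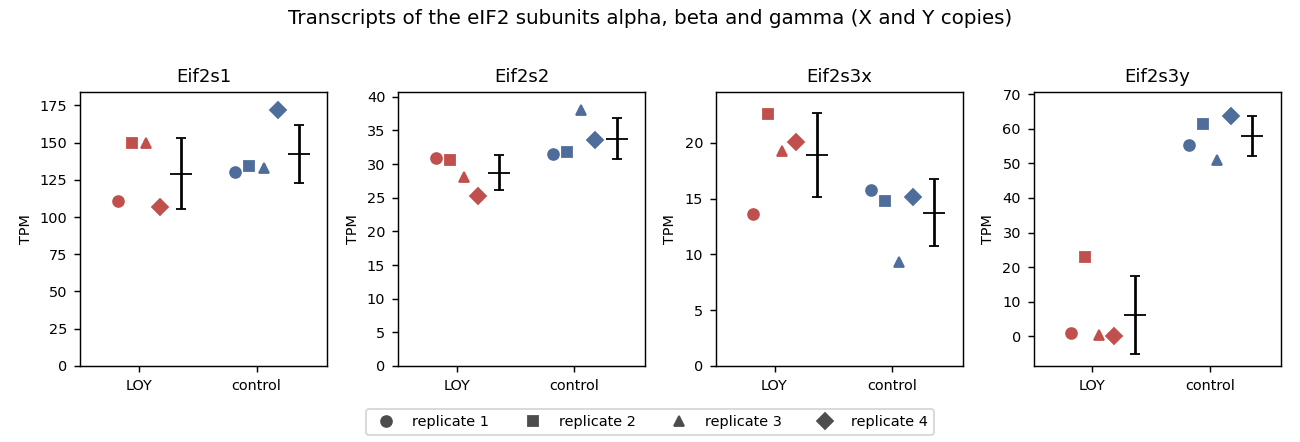
TPM of the eIF2 subunit genes by library (linear axes; marker shape is the replicate number, red is LOY, blue is control), with the mean and SD of each group in black; the SD bar of Eif2s3y in LOY libraries reaches below 0, where no TPM value can lie. Eif2s1 and Eif2s3x overlap between groups, Eif2s2 is separated by less than 1 TPM, and Eif2s3y is at 23.0 TPM in LOY replicate 2 and under 1 TPM in the other LOY libraries.

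Of the 4 genes for delivery of initiator tRNA outside eIF2 and for recycling of ribosomal subunits, all 4 log2 fold changes were below 0, and Denr had the smallest p of the 51 members. Without LOY replicate 1, 2 of the 4 were above 0 and 2 below, and after removal of the length and GC trend 1 was above and 3 below. Denr (chr5:123907175-123928835, plus strand) encodes a protein that pairs with the product of Mcts1 to clear used small subunits and to restart translation after short upstream reading frames. It was at 41.4, 36.7, 35.9 and 31.7 TPM in LOY libraries, against 50.7, 61.4, 64.7 and 49.0 TPM in control libraries. The groups did not overlap, and the highest LOY library stood 7.54 TPM below the lowest control library. The log2 fold change was -0.61 (SE 0.14, limma adjusted p = 0.179). It ranged from -0.68 to -0.55 when each library was left out in turn. It was -0.88 after removal of a trend on transcript length and GC. The exons of Denr overlap those of Gm43518 on the same strand, which averaged 2.74 TPM.

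The partner Mcts1 (X chromosome) did not show the same values. It was at 73.0, 129.7, 111 and 109.7 TPM in LOY libraries, against 102, 116, 117 and 126 TPM in control libraries (log2 fold change -0.15, 95% interval -0.52 to 0.23), and LOY replicate 1 was the lowest of all 8 libraries. The ratio of Denr to Mcts1 was 0.567, 0.283, 0.324 and 0.289 in LOY libraries, against 0.499, 0.529, 0.551 and 0.389 in control libraries. LOY replicate 1 had the highest ratio of the 8, and the other 3 LOY libraries lay below every control library. Eif2a and Eif2d, which can bring initiator tRNA to the ribosome without eIF2, had log2 fold changes of -0.04 and -0.07, with mean levels of 19.8 and 20.6 TPM over all libraries. Their exons overlap those of more abundant genes on the opposite strand, Serp1 (mean 217 TPM) for Eif2a and Rassf5 (mean 130 TPM) for Eif2d. The library kit does not tell these strands apart.

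The 7 genes of start codon scanning and subunit joining held the most abundant member, and none reached an unadjusted p under 0.05. Their median log2 fold change was -0.09, with 1 above 0 and 6 below. Under median-of-ratios scaling the median was -0.27, and 2 genes had lower LOY values at an unadjusted p under 0.05. Of all 11725 genes, 1293 had such lower values under that scaling, against 405 before it. It also moved the median of all genes from 0.16 to 0.00. Eif1, which guards the choice of start codon, was at 1018, 875, 982 and 1111 TPM in LOY libraries, against 1084, 1132, 1075 and 828 TPM in control libraries. The groups overlapped, and the log2 fold change of -0.04 had a 95% interval from -0.35 to 0.26. Eif1a and Eif1ax encode near-identical forms of eIF1A, and reads shared by the pair could be split between them. Eif1a averaged 63.0 ± 3.22 TPM in LOY libraries and 56.0 ± 3.33 TPM in control libraries (log2 fold change 0.17). Eif1ax, on the X chromosome, averaged 12.6 ± 2.85 TPM in LOY libraries and 15.4 ± 1.37 TPM in control libraries (log2 fold change -0.29, limma adjusted p = 0.316). Eif5, which triggers GTP hydrolysis by eIF2, was at 328, 187, 184.5 and 191 TPM in LOY libraries, against 204.9, 220.4, 289 and 211 TPM in control libraries. The LOY value is carried by replicate 1, and the log2 fold change of -0.09 became -0.29 without it. The summed level of the 7 genes was 1398 ± 124 TPM in LOY libraries and 1443 ± 153 TPM in control libraries (SD, n = 4 each).

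The 14 eIF3 genes were split, with 7 log2 fold changes above 0 and 7 below and a median of -0.04. Under median-of-ratios scaling 2 were above 0 and 12 below, and without LOY replicate 1, 9 were above and 5 below. Mean levels ran from 10.5 TPM (Eif3j1) to 162 TPM (Eif3k), and the genes summed to 1078 ± 67.3 TPM in LOY libraries and 1112 ± 65.2 TPM in control libraries (SD, n = 4 each). Eif3a, the largest core subunit, had the highest fold change of the group. It was at 94.0, 85.3, 69.7 and 81.6 TPM in LOY libraries, against 77.0, 64.6, 57.0 and 69.6 TPM in control libraries. Replicate 3 was the lowest library in both groups, and the groups overlapped between 69.7 and 77.0 TPM. The log2 fold change was 0.30 (SE 0.13, limma adjusted p = 0.217) and 0.02 after removal of the length and GC trend. Eif3e, a subunit known from tumour insertion sites in mice as Int6, averaged 73.0 ± 10.5 TPM in LOY libraries and 83.8 ± 10.6 TPM in control libraries (log2 fold change -0.20, 95% interval -0.51 to 0.11). LOY replicate 1 was the lowest of the 8 libraries for 7 of the 14 eIF3 genes, against 13.8% of all genes tested. The remaining 12 subunit genes had log2 fold changes between -0.23 and 0.23. Eif3j1 and Eif3j2 are near copies, and reads could be split between them.

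The 12 genes grouped by name as the cap complex eIF4F and its helpers held 4 of the 6 members with higher LOY values at an unadjusted p under 0.05. None of the 12 had lower LOY values at that threshold. Over all genes tested 19.3% were higher and 3.45% lower. Of the 12 log2 fold changes 9 were above 0 and 3 below, and the median was 0.23. The 12 genes summed to 1468 ± 74.7 TPM in LOY libraries and 1304 ± 106 TPM in control libraries (SD, n = 4 each), the groups touching between 1374 and 1430 TPM. Under median-of-ratios scaling, which moved the median of all genes from 0.16 to 0.00, 7 of the 12 were above 0 and 5 below, with a median of 0.08, and the 4 genes at an unadjusted p under 0.05 gave way to 1 with higher and 1 with lower LOY values. Of all 11725 genes, 1272 were higher and 1293 lower at that threshold under this scaling. After removal of the length and GC trend there was likewise 1 of the 12 in each direction, where 7.65% of all genes were higher and 7.82% lower.

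Within the complex the scaffold genes carried the highest fold changes. Eif4g1 (chr16:20668313-20692884, plus strand), the main scaffold that joins eIF4E to the helicase and to eIF3, was at 34.9, 40.8, 43.7 and 46.2 TPM in LOY libraries, against 45.4, 22.9, 16.0 and 28.9 TPM in control libraries. Eif4g3 (chr4:137993022-138208508, plus strand), a second scaffold of the same kind, was at 22.9, 32.0, 29.5 and 31.8 TPM in LOY libraries, against 25.6, 14.2, 13.1 and 18.5 TPM in control libraries. Eif4g2 (chr7:111067750-111083030, minus strand), a relative that cannot bind eIF4E and serves cap-independent initiation, was at 158, 216, 175 and 231 TPM in LOY libraries, against 221, 104, 80.9 and 118 TPM in control libraries. In each of the 3 genes control replicate 1 lay within the range of the LOY libraries, whereas the other 3 control libraries lay below every LOY library. The log2 fold changes were 0.62 for Eif4g1 (SE 0.26, limma adjusted p = 0.202), 0.71 for Eif4g3 (SE 0.21, adjusted p = 0.179) and 0.66 for Eif4g2 (SE 0.27, adjusted p = 0.197). Without control replicate 1 they were 0.87, 0.89 and 0.94, with limma adjusted p of 0.0197, 0.0143 and 0.0139. Without control replicate 3 they were 0.39, 0.58 and 0.46, and Eif4g1 and Eif4g2 no longer had an unadjusted p under 0.05. After removal of the length and GC trend they were 0.22, 0.24 and 0.27, and none had an unadjusted p under 0.05.

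The helicase genes differed from each other in their values. Eif4a2 (chr16:23107444-23114136, plus strand) was the only member whose LOY libraries all lay above the control libraries. It was at 102, 119, 95.2 and 137 TPM in LOY libraries, against 90.0, 89.2, 67.8 and 90.6 TPM in control libraries, and the log2 fold change was 0.41 (SE 0.15, limma adjusted p = 0.182). Without LOY replicate 4 or without control replicate 3 its unadjusted p was no longer under 0.05. The same held under median-of-ratios scaling, where the log2 fold change was 0.23, and without control replicate 1 and LOY replicate 2 together. The exons of Eif4a2 overlap those of Rfc4 on the opposite strand, which the library kit does not tell apart, and Rfc4 was at 16.6 to 18.5 TPM in LOY libraries and 23.6 to 27.6 TPM in control libraries. Eif4a1, the more abundant helicase with a mean of 411 TPM, was at 482, 438, 360.1 and 452 TPM in LOY libraries, against 401, 446, 376 and 336 TPM in control libraries (log2 fold change 0.15, and -0.03 under median-of-ratios scaling). The pseudogene Eif4a-ps4, left out by name, was at 0.0698, 1.57, 11.5 and 3.5e-05 TPM in LOY libraries, against 8.80, 6.91, 3.7e-07 and 0 TPM in control libraries. Levels of such near-identical copies are uncertain, since shared reads can be split between them.

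Eif4e, which binds the cap itself, was nearly level. It was at 175, 199.7, 198 and 163 TPM in LOY libraries, against 183, 176, 185 and 212 TPM in control libraries (log2 fold change -0.04, 95% interval -0.30 to 0.22). The ratio of Eif4g1 to Eif4e was 0.199, 0.204, 0.221 and 0.283 in LOY libraries, against 0.248, 0.130, 0.0866 and 0.136 in control libraries. Control replicate 1 again lay within the LOY range, and the other control libraries lay below it. The remaining 6 genes of this group had log2 fold changes between -0.16 (Eif4a3) and 0.39 (Eif4b). Among them were the minor cap-binding proteins and the helicase helpers Eif4b and Eif4h. The group was drawn up by gene name, so a place in it, such as that of Eif4a3, does not mean a place in eIF4F. None of the 6 reached an unadjusted p under 0.05.

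**Figure D3:**
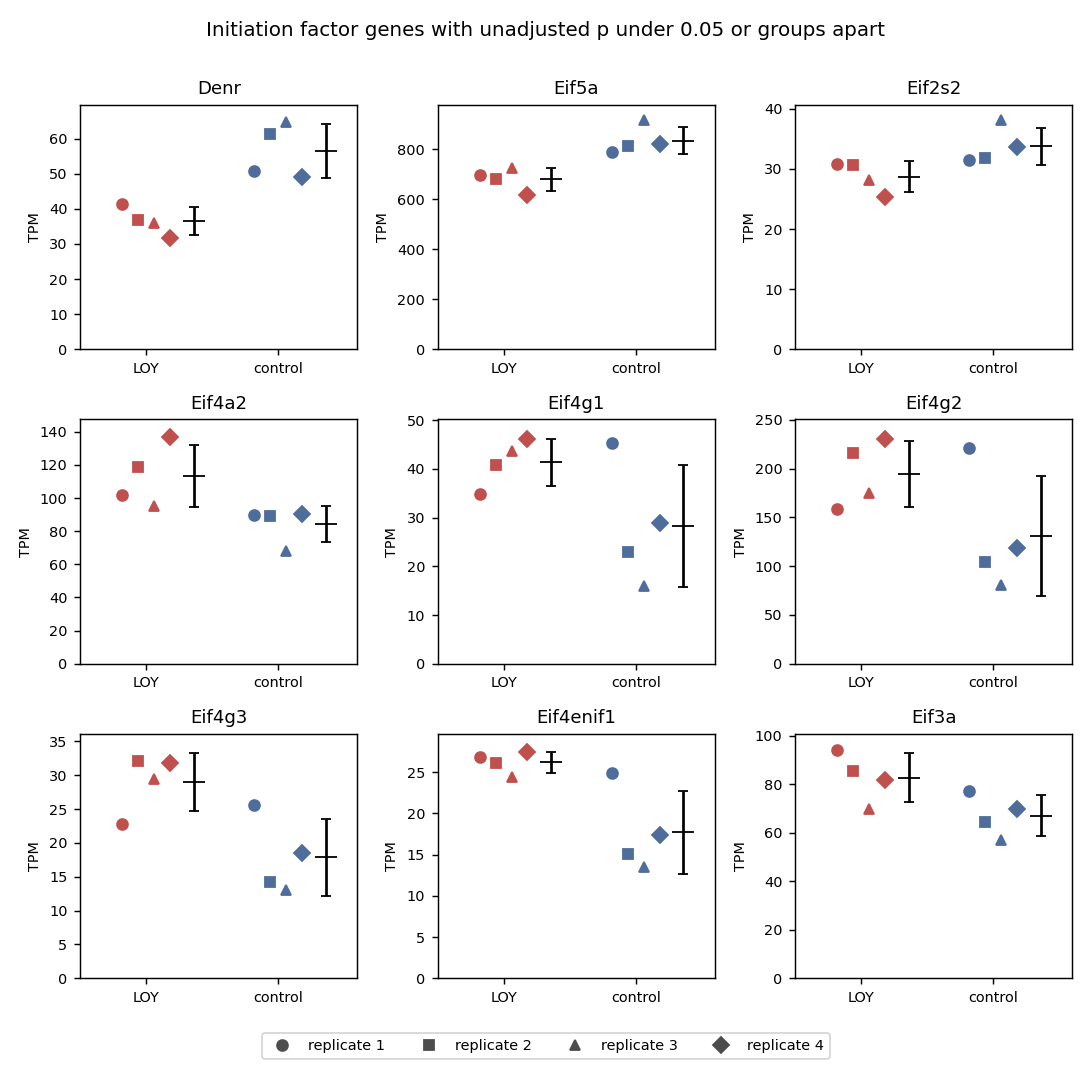
TPM by library of the 9 members that had an unadjusted p under 0.05 or groups that did not overlap (linear axes from 0; marker shape is the replicate number, red is LOY, blue is control), with the mean and SD of each group in black (n = 4 each). Denr, Eif5a and Eif2s2 are lower in all LOY libraries, Eif4a2 is higher in all of them, and control replicate 1 sits with the LOY libraries in Eif4g1, Eif4g2, Eif4g3 and Eif4enif1.

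Proteins that hold eIF4E away from the scaffold were represented by 4 genes. Eif4ebp1, the classical mTORC1 target, was the most abundant and averaged 172 ± 7.25 TPM in LOY libraries and 183 ± 19.8 TPM in control libraries (SD, n = 4 each), with a log2 fold change of -0.08 and a 95% interval from -0.33 to 0.16. Eif4ebp2 was at 43.4, 38.0, 38.3 and 57.0 TPM in LOY libraries, against 42.6, 40.2, 24.4 and 39.6 TPM in control libraries. Its log2 fold change was 0.27, and -0.12 after removal of the length and GC trend. Eif4enif1 (chr11:3202392-3244588, plus strand) encodes the 4E transporter, which carries eIF4E to the nucleus and to processing bodies. It was at 26.8, 26.1, 24.4 and 27.4 TPM in LOY libraries, against 24.9, 15.1, 13.6 and 17.3 TPM in control libraries. The LOY libraries were close together and control replicate 1 lay among them. The log2 fold change was 0.57 (SE 0.18, limma adjusted p = 0.18), and 0.74 without control replicate 1 (limma adjusted p = 0.0136). It fell to 0.46 without control replicate 3 (limma adjusted p = 0.402). Under median-of-ratios scaling it was 0.40, and after removal of the length and GC trend 0.34 (limma adjusted p = 0.26). The 4 repressors summed to 247 ± 10.2 TPM in LOY libraries and 241 ± 15.2 TPM in control libraries. The ratio of Eif4ebp1 to Eif4e lay between 0.853 and 1.04 in LOY libraries and between 0.778 and 1.14 in control libraries.

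Among the genes named as initiation factors for their history, Eif5a encodes the hypusine-bearing protein that helps stalled ribosomes through difficult peptide bonds. Eif5a (chr11:69916714-69921958, minus strand) was at 695, 679.8, 725 and 616 TPM in LOY libraries, against 789, 811, 915 and 822 TPM in control libraries. All LOY libraries lay below all control libraries, 63.9 TPM apart at the closest pair. The log2 fold change was -0.30 (SE 0.11, limma adjusted p = 0.182), and it lay between -0.33 and -0.25 when each library was left out in turn. Without LOY replicate 4 or without control replicate 3 its unadjusted p was 0.05 or more. The same held without control replicate 1 and LOY replicate 2 together. Its rarer relative Eif5a2 averaged 2.81 ± 0.885 TPM in LOY libraries and 1.77 ± 0.719 TPM in control libraries (log2 fold change 0.47, limma adjusted p = 0.246). Eif6, which keeps large ribosomal subunits from joining too early, averaged 125 ± 24.0 TPM in LOY libraries and 145 ± 10.9 TPM in control libraries (log2 fold change -0.23, adjusted p = 0.319). LOY replicate 1 had 159 TPM of Eif6, above 3 of the control libraries, and the other LOY libraries had 104 to 119 TPM.

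The fold changes of the members went with transcript length, as they did over all genes. Across the 51 members the Spearman correlation of log2 fold change with the length of the longest annotated transcript was 0.349, and across the 11663 genes with a length it was 0.49, both over genes of the same 8 libraries and given as a description. Of the 26 longer members 14 were above 0, and of the 25 shorter members 8 were above 0. The 6 members with higher LOY values at an unadjusted p under 0.05 had a median length of 5382 bases and the 2 with lower values one of 2700 bases, against 4481 and 1550 bases for all genes called in the same way. Eif4g3, at 8134 bases, and Eif4g2, at 7995 bases, were the longest members. Denr, at 3962 bases, was longer than the median of all genes (3180 bases) and had the lowest fold change. With a trend on length and GC removed, 2 members (Eif4a2 and Eif4enif1) had higher LOY values at an unadjusted p under 0.05, where 7.65% of all genes did, and 9 members had lower values, where 7.82% did.

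**Figure D4:**
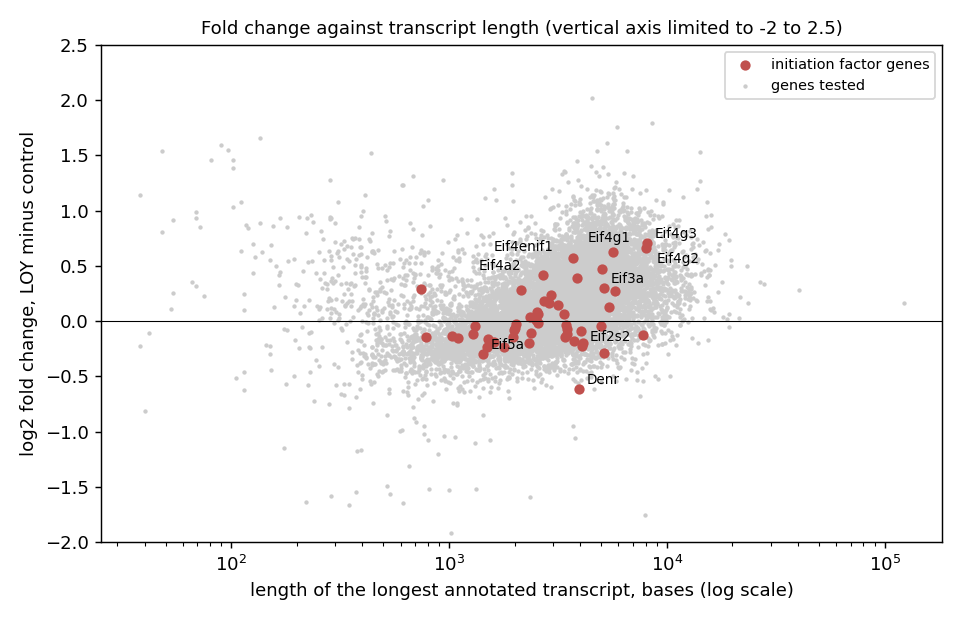
Log2 fold change, LOY minus control (linear scale, extremes beyond the axis not drawn), against the length of the longest annotated transcript (log scale, bases) for the initiation factor genes (red) and all genes tested (grey). The longest members, Eif4g3 and Eif4g2, are among the highest, and Denr lies lowest at 3962 bases.

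In the authors' deposited table no member had an adjusted p under 0.05, while 4.34% of the genes with an adjusted p were higher and 0.103% lower at that threshold. Of the members, 5 were higher at an unadjusted p under 0.05 in the authors' deposited table (Eif4enif1, Eif4g1, Eif4g2, Eif4g3 and Eif5a2) and 0 were lower, against 23.8% and 0.828% of all genes. The smallest adjusted p there belonged to Eif4g3, with 0.0569 in the authors' deposited table at a log2 fold change of 0.80. For Denr the authors' deposited table gave a log2 fold change of -0.34 (p = 0.136), for Eif5a -0.29 (p = 0.196) and for Eif4a2 0.36 (p = 0.12). The sign was the same as in the limma fit for 46 of the 51 members. Denr thus had the smallest p of the members on the TPM scale, but not in the authors' deposited table, where it did not reach an unadjusted p under 0.05.

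**Figure D5:**
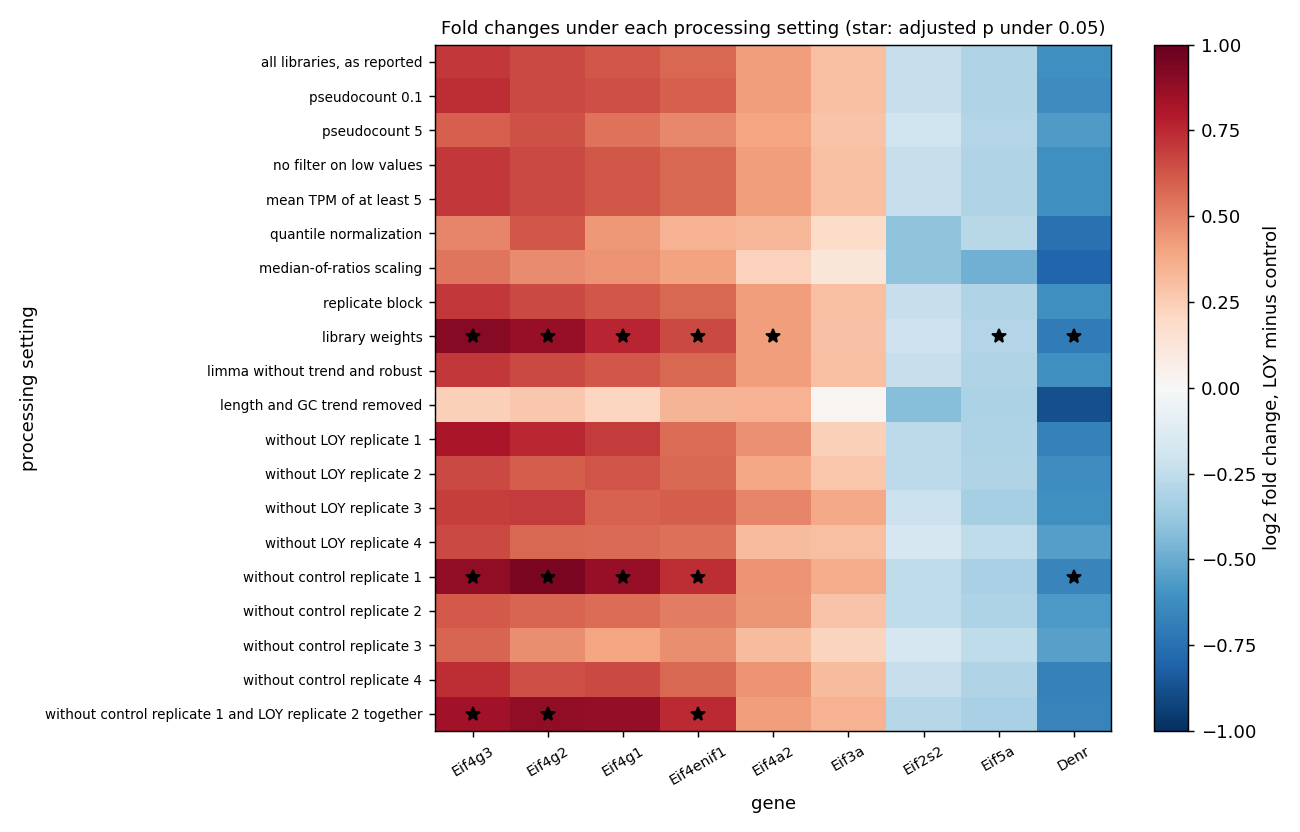
Log2 fold change, LOY minus control, of 9 members (columns) under each processing setting (rows), from blue (below 0) through white (0) to red (above 0), with stars where the limma adjusted p was under 0.05. Denr and Eif5a stay below 0 and Eif4a2, Eif4enif1 and the scaffold genes above 0 in every row, stars appear with library weights, without control replicate 1, and without that library and LOY replicate 2 together, and the scaffold genes pale where the length and GC trend is removed.

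Upstream controls of initiation were described from 4 lists, drawn up by pathway with earlier results of these data known. No gene of these lists passed the adjusted threshold, and the background at an unadjusted p under 0.05 was 19.3% higher and 3.45% lower. Of 13 tested genes of the eIF2 kinase and stress list 5 were higher and 0 lower, with 12 above 0 and a median log2 fold change of 0.29. Impact, an inhibitor of the kinase sensor Gcn1, averaged 21.6 ± 1.69 TPM in LOY libraries and 13.2 ± 0.972 TPM in control libraries (SD, n = 4 each). Its groups did not overlap, and the log2 fold change was 0.67 (SE 0.13, limma adjusted p = 0.179). Dnajc3, an inhibitor of eIF2 kinases also known as P58IPK, averaged 37.0 ± 1.03 TPM in LOY libraries and 26.0 ± 3.21 TPM in control libraries, again without overlap. Eif2ak3, the kinase PERK of the endoplasmic reticulum, averaged 6.91 ± 0.587 TPM in LOY libraries and 4.14 ± 1.92 TPM in control libraries. Control replicate 1 had 6.97 TPM of Eif2ak3, within the LOY range, and the other control libraries had 2.76 to 3.52 TPM. The median of the list was 0.11 under median-of-ratios scaling and 0.02 after removal of the length and GC trend.

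Of the 16 genes of mTORC1 and MNK control, 5 reached an unadjusted p under 0.05, all with higher LOY values. Of the log2 fold changes 14 were above 0, and the median was 0.40. The median was 0.23 under median-of-ratios scaling and 0.15 after removal of the length and GC trend. Tsc2, a brake on mTORC1, averaged 22.9 ± 3.74 TPM in LOY libraries and 11.4 ± 4.71 TPM in control libraries. Larp1, which binds mRNAs of the translation machinery under mTORC1 control, averaged 24.9 ± 5.5 TPM in LOY libraries and 13.9 ± 8.31 TPM in control libraries. For Tsc2 and Larp1, control replicate 1 (18.4 and 25.6 TPM) lay within the LOY range, and the other control libraries lay below it. Akt1s1, the mTORC1 component PRAS, averaged 23.1 ± 3.2 TPM in LOY libraries and 16.9 ± 2.93 TPM in control libraries (SD, n = 4 each), and only for Akt1s1 among these 3 did the groups not overlap.

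Of 14 tested partners of the cap and of poly(A)-binding protein, 2 were higher and 0 lower, 10 were above 0 and the median was 0.30 (0.14 under median-of-ratios scaling and 0.02 after removal of the length and GC trend). Paip1, which bridges poly(A)-binding protein and the helicase, averaged 7.87 ± 0.941 TPM in LOY libraries and 4.997 ± 0.976 TPM in control libraries, without overlap. Gigyf2, a partner of the repressive cap-binding protein, averaged 26.7 ± 3.46 TPM in LOY libraries and 19.9 ± 3.67 TPM in control libraries. Control replicate 1 had 24.7 TPM of Gigyf2, within the LOY range, and the other control libraries lay below it. Of 11 tested elongation and termination genes, 0 were higher and 1 lower, 4 were above 0 and the median was -0.05. It was -0.23 under median-of-ratios scaling and -0.09 after removal of the length and GC trend. The lower gene was Eef1d, an exchange factor subunit of elongation factor 1, at 114, 110.1, 111 and 97.7 TPM in LOY libraries, against 123, 141, 126 and 124 TPM in control libraries. As with Eif5a, all LOY values of Eef1d lay below all control values, and its limma adjusted p also missed the threshold.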

How the data were processed

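RNA of 8 libraries of sorted heart macrophages (4 LOY, 4 control) was sequenced after SMART-Seq v4 amplification and Nextera XT preparation, per the labels' protocols; as that kit keeps no strand, 8 members that share exons with a gene on the opposite strand, and 3 with one on the same strand, cannot be fully told from it. The submitters' processing notes name STAR 2.5.2b, Trimmomatic 0.36, bcl2fastq 2.17, Subread 1.5.2 with featureCounts, and the build GRCm38 (mm10); no source used here names the tool behind TPM. The deposited TPM values of a library sum to a fixed total, so depth is unknown and no counting interval is given. It also holds the authors' comparison: a baseMean (a mean signal per gene), a log2 fold change, a p-value, its adjusted form and a score. The score, as deposited by the authors, was computed as fold change over its error, and whether its input was normalised is not stated. Per the file headers, the columns carry the names that DESeq2 gives. The baseMean of members, such as 12.875 for Eif4e1b, has the form of a mean over 8 whole numbers. It was therefore not read as normalised. WT columns were read as control and KO columns as LOY, and their numbers as replicates, from the names alone. Of 36708 gene IDs 35868 were found in GENCODE M21.

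The 11881 genes that averaged 1 TPM or more were kept, less 156 repeats of another ID. limma 3.58.1 in R 4.3.3 (trend, robust) compared log2(TPM + 1), LOY minus control, in a two-sided test adjusted by Benjamini-Hochberg (threshold 0.05); the pseudocount understates changes of low genes. The fit was tested on simulated data with noise drawn separately for each gene, which does not cover libraries that deviate over many genes together. Members, lists, named genes and alternatives were chosen with earlier results of these data known. The text names 22 members: a preset 20, those whose groups did not overlap and those with the smallest p under 0.05; in each pathway list at most 3 of smallest p. Genes named besides (range ends, E box holders, copies, exon neighbours) were chosen after their values were seen. Same-numbered libraries did not deviate together. Alternatives were other pseudocounts (0.1, 5), filters (none, at least 5 TPM), scalings, weights, options, a block, removal of a length and GC trend and leaving out libraries.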

Additional observations from a re-analysis of the deposited data

Results flagged for a closer look

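In each group of 4 libraries, 1 library was set apart when its gap to the nearest other exceeded, as a share of the range, Dixon's 95% critical value, which chance gives in about 1 of 20 groups; 7 of 62 groups met it. Eif5 was at 328 TPM in LOY replicate 1, against 184.5 to 191 TPM in the other LOY libraries. Eif2s3y was at 23.0 TPM in LOY replicate 2, against 0.271 to 0.891 TPM in the others. The summed eIF2 and exchange factor genes gave 276 TPM in LOY replicate 4 and 319.7 to 328 TPM in the others. Eif2s1 was at 172 TPM in control replicate 4, against 130.4 to 134 TPM in the other control libraries. Control replicate 3 was the low library in the remaining 3 groups: Eif4a2 was at 67.8 TPM there (89.2 to 90.6 TPM in the other control libraries), Eif4ebp2 at 24.4 TPM (39.6 to 42.6 TPM) and Eif2s3x at 9.31 TPM (14.8 to 15.8 TPM). Control replicate 3 was the lowest of the 8 libraries for 16 members (31.4%), against 41.3% of all genes tested.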

How the results depend on the processing

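Of 456 values of single genes under 19 alternatives, 419 kept their direction and their side of the adjusted threshold, 20 newly passed it and 17 changed sign. Denr and Eif4enif1 had an unadjusted p under 0.05 in all settings. Library weights gave 3103 genes and 8 members past the adjusted threshold, with 4 members lower at an unadjusted p under 0.05 (7.2% of all genes); weighted, 23.5% of all genes were called higher and 3.0% lower. Leaving out control replicate 1 with LOY replicate 2 gave 566 genes (4.83%) and 3 members, with 1 member lower (2.73% of all genes). Quantile normalization gave 5 lower members, where 9.7% of all genes were lower, and a median of -0.15. Median-of-ratios scaling gave 2 higher and 9 lower members and a median of -0.22, with 1272 of all genes higher and 1293 lower; removal of the length and GC trend gave 2 higher, 9 lower and -0.12, with 7.65% and 7.82% of all genes. Leaving out each library in turn gave 0 to 1805 genes and 0 to 5 members past the adjusted threshold, 2 to 7 members higher (9.93% to 29.5% of all genes), 1 to 4 lower (1.88% to 5.09%), and medians from -0.068 to -0.0029; the highest counts past the threshold came without control replicate 1. Among the signs that changed, Eif2b5 was -0.12 with quantile normalization, -0.11 with median-of-ratios scaling and -0.088 without the length and GC trend; Eif1a -0.012 and Eif4a1 -0.032 with median-of-ratios scaling; Eif4e 0.0097 with library weights; Eif1 0.0045, Eif4ebp2 -0.12 and Mcts1 0.063 without the length and GC trend; and Eif1 0.047 without both libraries. Leaving out libraries moved Eif2b5 between -0.039 and 0.14, Mcts1 between -0.25 and 0.019, Eif1 between -0.14 and 0.019, Eif4e between -0.081 and 0.016 and Eif5 between -0.29 and 0.026. The cause of these shifts was not tested.

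The replicate numbers did not pair the samples (correlations of same-numbered deviations -0.0298, -0.152, 0.0392 and -0.0719); with the replicate number as a block, 4 members were higher and 2 lower (17.7% and 3.51% of all genes), 0 passed the adjusted threshold and the median was -0.04. TPM keeps no depth, so in the limma fit the precision of low members such as Eif4e1b rests on the spread between libraries alone. The authors' baseMean was 12.9 for Eif4e1b, against a median of 2928 over the members.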
